A study of Mus musculus with 63 samples.

Results

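The genes of synaptic vesicle release and recycling described here are 51 protein-coding genes, chosen by symbol and grouped by role, of 20183 rows in the expression table. They comprise 13 synaptotagmin and Doc2 genes, a family of calcium sensors some of whose members, such as Syt11, do not bind calcium, 12 SNARE proteins and SNARE regulators, 8 active zone genes, 13 vesicle proteins and 5 endocytosis genes. They were measured by Smart-seq2, a full-length single-cell RNA sequencing method, in single neurons drawn by pipette out of layer 2/3 of V1, the primary visual area, in wild-type C57BL/6 mice at 70 days of age. All mice were lightly anaesthetised with isoflurane, all neurons were loaded with the calcium dye Cal-520 AM, and both groups saw the same moving gratings. Light-sensitive (LS) neurons answered at least 4 of 5 gratings with a calcium response, and non-light-sensitive (NS) neurons answered at most 1. The pipette takes the soma, so RNA in axons and dendrites was left out, and fewer RNA molecules in a cell and less RNA taken from it cannot be told apart.

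The table holds 46 LS and 17 NS neurons, of which 35 LS and 12 NS neurons passed the filters of the study as they could be applied to it. No label ties a neuron to a mouse, so each group counts as 1 sample, no test between groups was made, and the SD describes the spread between cells. Levels are FPKM, fragments per kilobase of exon, scaled to the reads of the cell, which allow genes to be compared with each other. Ratios are log2((mean + 1)/(mean + 1)) of 2 group means in FPKM, and a gene is called 2-fold higher or lower where this reaches 1 or -1. The neurons were split by transmitter markers. A glutamate-marked neuron had more Slc17a7 and Neurod2 than Gad1 and Gad2, a GABA-marked neuron had the reverse, and an unmarked neuron had neither. The LS group held 30 glutamate-marked, 4 GABA-marked and 1 unmarked neuron, and the NS group held 2, 6 and 4, so light response and marker class cannot be told apart in the pooled ratio.

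In a nerve terminal, vesicles filled with transmitter dock at the active zone, where Rims and Unc13 proteins and the large scaffolds Bassoon (Bsn) and Piccolo (Pclo) prepare them for release. The vesicle SNARE Vamp2 then pairs with Snap25 and Stx1a in the plasma membrane, complexins hold the complex ready, and synaptotagmins such as Syt1 trigger fusion when calcium enters. Nsf and its adaptors Napa and Napb take the used complexes apart, and amphiphysin (Amph), endophilin (Sh3gl2), dynamin (Dnm1) and synaptojanin (Synj1) help to retrieve the membrane.

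Promoter windows around annotated gene starts were listed in RefSeq (GRCm38.p6) for 38 of the 51 genes. The windows of 4 genes are shown, since Syn1 and Stx1a had higher means in LS neurons and Cplx1 and Rab3c had higher means in GABA-marked than in glutamate-marked LS neurons. Each window is 300 bases long. Capitals mark matches, on either strand, to a GC-rich hexamer, to a cAMP response element, to the start of a neuron-restrictive silencer element, or to a TATA box, whose letters follow below the windows. The windows lie at chrX:20920869-20921168 (minus strand), chr5:135023232-135023531 (plus strand), chr5:108549978-108550277 (minus strand) and chr13:110280157-110280456 (minus strand).
Syn1: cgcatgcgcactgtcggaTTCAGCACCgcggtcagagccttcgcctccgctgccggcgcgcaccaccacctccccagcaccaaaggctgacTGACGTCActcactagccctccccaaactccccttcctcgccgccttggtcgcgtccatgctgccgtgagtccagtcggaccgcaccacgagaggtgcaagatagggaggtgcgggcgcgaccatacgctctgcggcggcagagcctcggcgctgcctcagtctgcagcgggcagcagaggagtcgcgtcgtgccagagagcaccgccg
Stx1a: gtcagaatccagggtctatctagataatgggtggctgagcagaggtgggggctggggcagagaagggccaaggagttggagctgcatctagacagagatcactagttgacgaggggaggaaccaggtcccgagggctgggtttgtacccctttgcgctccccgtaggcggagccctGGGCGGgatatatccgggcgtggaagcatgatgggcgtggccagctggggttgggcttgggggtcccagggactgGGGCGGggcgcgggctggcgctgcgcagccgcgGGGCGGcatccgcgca
Cplx1: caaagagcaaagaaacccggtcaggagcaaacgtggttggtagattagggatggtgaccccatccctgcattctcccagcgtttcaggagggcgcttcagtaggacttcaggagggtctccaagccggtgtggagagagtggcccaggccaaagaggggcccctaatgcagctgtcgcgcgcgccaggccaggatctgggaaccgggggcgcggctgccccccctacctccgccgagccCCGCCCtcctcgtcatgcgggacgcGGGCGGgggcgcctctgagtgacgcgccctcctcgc
Rab3c: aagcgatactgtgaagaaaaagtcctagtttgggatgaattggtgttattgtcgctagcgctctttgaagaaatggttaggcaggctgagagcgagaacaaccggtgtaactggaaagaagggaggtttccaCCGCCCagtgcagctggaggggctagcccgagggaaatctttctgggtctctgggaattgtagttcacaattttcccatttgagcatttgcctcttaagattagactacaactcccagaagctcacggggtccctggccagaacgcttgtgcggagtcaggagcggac

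The GC-rich hexamer GGGCGG occurred on either strand in the windows of 30 of the 38 genes (78.9%) and of 38.2% of all 27025 gene symbols in the table. The cAMP response element, searched as TGACGTCA, occurred in 3 of the 38 (Napa, Syn1 and Sh3gl2) and in 2.03% of all symbols. The start of the silencer element, searched as TTCAGCACC, occurred in Syn1 and Unc13a and in 0.433% of all symbols. The TATA box, searched as TATAAA, occurred in Sv2b and Rab3b and in 15.7% of all symbols. Each motif was searched on its own, and overlapping matches were all counted. The Stx1a window held 3 copies of the GC-rich hexamer, that of Cplx1 held 2 and that of Rab3c held 1. The Syn1 window held 0 copies of it and carried the response element and the silencer start.

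LS neurons had reads for more of the genes. An LS neuron had a read for 36.5 ± 8.74 of the 51 genes (SD, n = 35; lowest 9, median 39, highest 48), and an NS neuron for 17.3 ± 9.73 (n = 12; lowest 3, median 17.5, highest 36). These are 71.6% and 33.99% of the genes. The same share over all genes of the table was 33.6% in LS and 19.6% in NS neurons. By marker class, the NS mean was 24.5 genes in the 2 glutamate-marked, 21.5 in the 6 GABA-marked and 7.5 in the 4 unmarked neurons. These are 48.0%, 42.2% and 14.7% of the genes, beside 36.8%, 17.6% and 13.9% over all genes. The LS mean was 38.1 genes in the 30 glutamate-marked and 31.25 in the 4 GABA-marked neurons. NS neurons were also shallower, with 153983 to 900859 recovered reads against 382137 to 2549386. After each neuron was thinned to 200000 reads, which left out 3 NS neurons, the counts were 34.8 ± 8.87 in 35 LS and 16.7 ± 10.48 in 9 NS neurons. The groups overlapped, since LS neurons 43, 13 and 39 had 9, 11 and 14 of the genes and NS neuron 16 had 36.

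**Figure D1:**
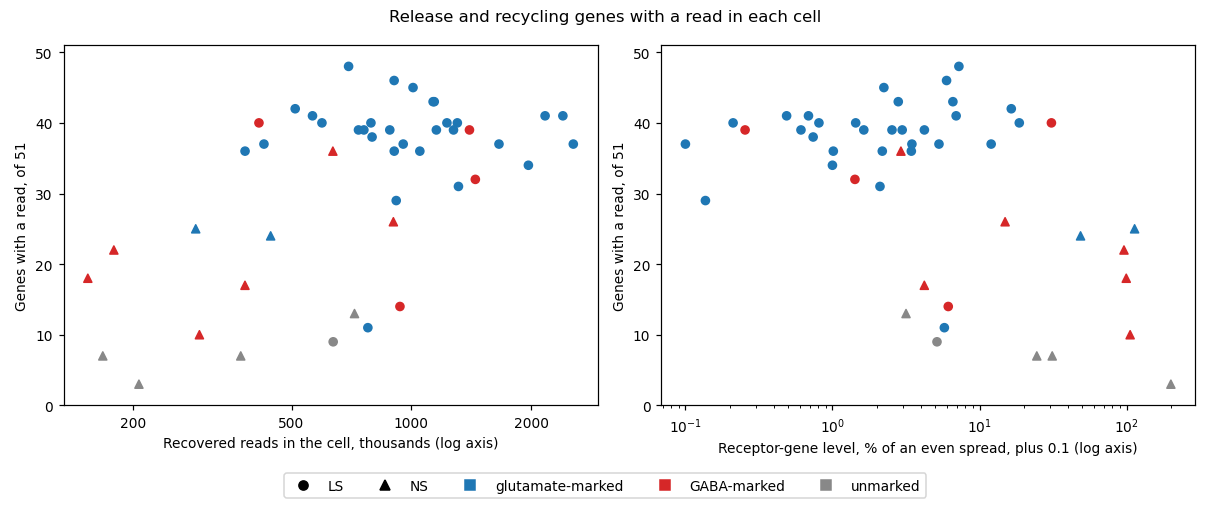
Number of the 51 release and recycling genes with a read in each neuron, against its recovered reads (left, log axis) and against the mean level of receptor genes (right, log axis, in percent of the level that reads spread evenly over exons would give, plus 0.1). Each point is 1 neuron, circles are LS, triangles are NS, and colours give the marker class. All but 3 LS neurons lie at 29 genes or more, and 1 NS neuron, at 36, does.

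The NS neurons were uneven in measures other than these genes. Odorant, vomeronasal and taste receptor genes, which neurons of the cortex hardly express, served as an index of reads that lie outside expressed genes. This index was 2.44% of an even spread in the median LS neuron (lowest 0, highest 30.7%) and 39.8% in the median NS neuron (lowest 2.82%, highest 200%). Of the 8 general neuronal markers, an LS neuron had reads for 7 in the median and an NS neuron for 2.5. Their summed level ran from 0.0888 to 970 FPKM in LS and from 0 to 646 FPKM in NS neurons, and NS neuron 7 had none of them. Of the 5 microglia markers an NS neuron had 0 to 5, with a summed level of 0 to 4728 FPKM, against 0 to 4 and 0 to 1279 FPKM in LS neurons. Of the 6 astrocyte markers an NS neuron had 0 to 5 (0 to 961 FPKM) and an LS neuron 0 to 5 (0 to 1049 FPKM). Oligodendrocyte markers summed to 0 to 1136 FPKM in NS and 0 to 99.8 FPKM in LS neurons, blood markers to 0 to 53.8 and 0 to 49807 FPKM, and endothelial markers to 0 to 22.9 and 0 to 540 FPKM. The 4 unmarked NS neurons averaged 602 FPKM of summed astrocyte, 307 of oligodendrocyte and 1560 of microglia markers. The 6 GABA-marked NS neurons averaged 36.6, 30.7 and 19.35 FPKM, and the 2 glutamate-marked ones 80.5, 38.5 and 256. The part of all these measures in the ratios that follow was not tested.

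Between the groups, 23 of the 51 genes were at least 2-fold higher in LS neurons, against 31% of all 16760 genes with a mean of 1 FPKM in either group, and 10 were at least 2-fold lower, against 35.6%. The median log2 ratio was 0.45 for the 51 genes and -0.17 for all genes tested. By role, 7 of 12 SNARE genes, 7 of 13 vesicle proteins, 6 of 13 synaptotagmin and Doc2 genes and 3 of 5 endocytosis genes were higher, and 0 of 8 active zone genes were. Lower were 4 active zone genes, 3 vesicle proteins, 2 synaptotagmins and 1 SNARE regulator. These counts depended on which neurons were compared. In the 31 LS and 3 NS neurons whose receptor-gene level was under 10%, 20 of 48 genes were higher, against 67.1% of all genes, and 11 were lower, against 16.1%. These NS neurons were numbers 13 and 16, both GABA-marked, and 14, which was unmarked. Neuron 14 had 961 FPKM of summed astrocyte and 644 FPKM of summed microglia markers. All but 4 of the 31 LS neurons had Slc17a7 or Neurod2. Light response and marker class cannot be told apart in this set either. Among GABA-marked neurons, 4 LS against 6 NS, 11 of 50 genes were higher, against 40.3% of all genes, 20 were lower, against 40.98%, and the median log2 ratio was -0.50. Of the 23 genes higher in the pooled neurons, these stayed under 2-fold there: Syt1 (0.34), Syt4 (0.63), Syt7 (0.31), Vamp2 (0.46) and Cplx2 (0.31). So did Syn1 (0.15), Syn2 (0.96), Syp (0.84), Sv2a (0.47) and Snap91 (0.22). The ratio changed sign for Snap25, Stx1a, Napa, Sv2b, Amph and Sh3gl2. It stayed past 2-fold for Syt5 (4.70), Syngr3 (3.09), Syt17 (2.18), Rab3a (2.14), Syt13 (1.58), Napb (1.20) and Nsf (1.20). For each of these genes LS neuron 14 held the largest part of the GABA-marked LS sum. Its part was 95.8% for Syt17, 78.0% for Syt13, 76.7% for Nsf and 48.5 to 63.3% for the rest. Whether these ratios hold without that neuron was not tested.

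**Figure D2:**
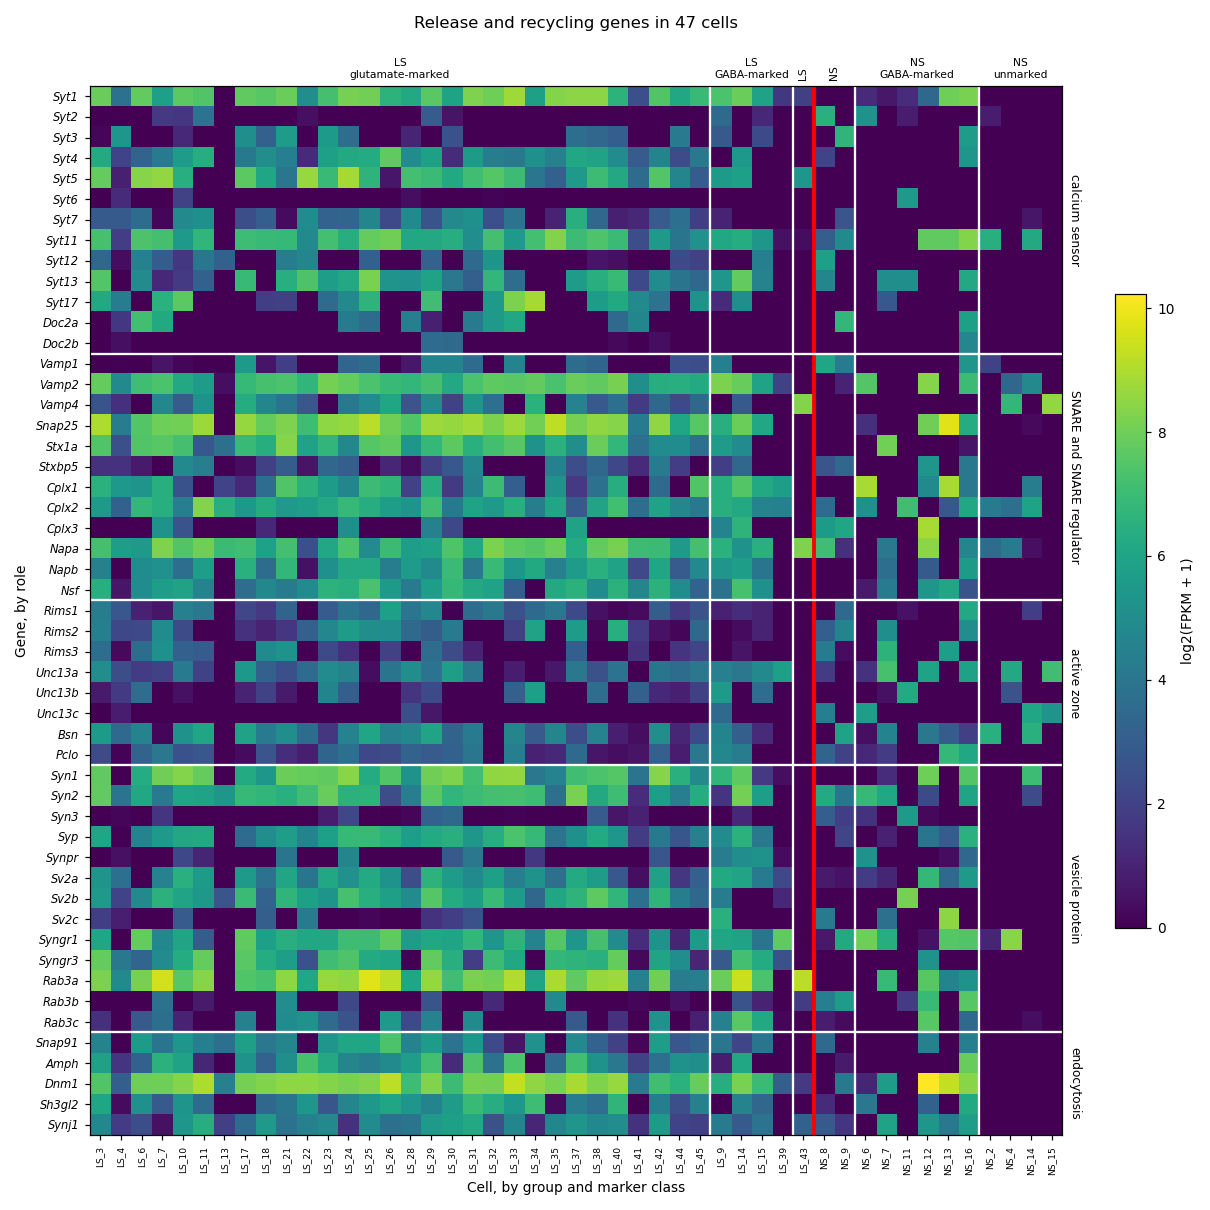
Level of the 51 genes (rows, by role) in the 47 neurons (columns), as log2(FPKM + 1) on the colour scale. The red line separates LS from NS neurons and white lines separate marker classes and roles. Most rows are filled across the glutamate-marked LS neurons and filled in few NS neurons, of which neuron 16 had reads for the most genes, 36.

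Among the synaptotagmin and Doc2 genes, Syt1, the fast sensor of forebrain synapses, lay at 0 to 441 FPKM in LS neurons (median 175, mean 163 ± 118, reads in 34 of 35). In NS neurons it lay at 285 FPKM in neuron 16, 248 in neuron 13, 10.1 in neuron 12, and 0 to 1.44 in the other 9. The LS mean was higher by 1.82 on the log2 scale, or by 2.54 without NS neuron 13 and 2.73 without NS neuron 16. In the neurons with a receptor-gene level under 10% the ratio was -0.07. So 3 NS neurons reached 10 FPKM of Syt1, as 31 of 35 LS neurons did.

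Syt5 was the synaptotagmin with the second highest LS mean, at 109 ± 123 FPKM (median 71.5, highest 465, reads in 31 of 35). It had no read in the 12 NS neurons, which allows a share of up to 26.5% of cells (exact binomial, counting error only). With 8488 reads in LS neurons and 3 as the floor over the NS group, its share of reads was at least 355-fold higher, a bound that covers counting error only. Syt11 reached 95.1 ± 75.1 FPKM in LS and 78.3 ± 110 in NS neurons, a log2 ratio of 0.28 and of -1.36 among GABA-marked neurons. Syt13 averaged 53.5 ± 70.3 and 13.6 ± 22.97 FPKM (log2 ratio 1.90, or 2.55 without NS neuron 16).

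Syt17 averaged 48.7 ± 96.7 FPKM in the LS group, where 20 of 35 neurons had reads. Its NS mean was 0.504 FPKM, from neuron 7 alone, at 6.05 FPKM. Its log2 ratio was 5.05, or 5.64 without that neuron. Syt4 averaged 34.2 ± 40.1 FPKM in LS neurons and 3.53 ± 11.3 in NS neurons, with 92.6% of the NS sum in neuron 16. Its ratio was 2.96, or 4.78 without that neuron. Syt7, a slow high-affinity sensor, averaged 11.7 ± 17.1 and 0.4997 ± 1.57 FPKM, a ratio of 3.09. Syt2, the fast sensor of many inhibitory and hindbrain synapses, averaged 1.08 ± 3.10 and 10.6 ± 26.7 FPKM. Its ratio was -2.47, -1.11 without NS neuron 8, which held 69.7% of the NS sum at 88.3 FPKM, and 0.90 where the receptor-gene level was under 10%. Syt3, Syt12, Doc2a and Doc2b lay between the 2-fold limits, and each moved with 1 NS neuron. The ratio of Syt3 was 0.61 without NS neuron 9, that of Doc2a was 1.13 without NS neuron 9, that of Syt12 was 2.75 without NS neuron 8 and that of Doc2b was 0.72 without NS neuron 16. Syt6 was lower in LS neurons on the reads of NS neuron 11, and its ratio was 0.18 without that neuron.

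Snap25, the plasma membrane SNARE, had the highest level of the SNARE genes. It lay at 0 to 593 FPKM in LS neurons (median 264, mean 266 ± 166, reads in 32 of 35). In NS neurons it lay at 845, 258 and 80.9 FPKM in neurons 13, 12 and 16, and at 0 to 1.66 in the other 9. The log2 ratio was 1.42, or 3.06 without NS neuron 13, -0.15 where the receptor-gene level was under 10% and -0.98 among GABA-marked neurons. The direction therefore differed between sets of neurons. Vamp2, the vesicle SNARE, had a median of 146 FPKM in LS neurons (mean 138 ± 83.0) and 332, 179 and 130 FPKM in NS neurons 12, 6 and 16. Its ratio was 1.27, or 2.10 without NS neuron 12.

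Napa averaged 133 ± 87.7 FPKM in LS and 46.8 ± 104 in NS neurons, with 62.97% of the NS sum in neuron 12. Its ratio was 1.48, 2.75 without that neuron and -0.27 among GABA-marked neurons. Stx1a averaged 93.5 ± 83.8 FPKM in LS neurons, with reads in 32 of 35. In NS neurons 2 had reads, neuron 7 at 262 FPKM and neuron 16 at 0.512. Its ratio was 2.04, 6.50 without NS neuron 7 and -1.11 among GABA-marked neurons. Nsf, the ATPase that takes SNARE complexes apart, averaged 48.3 ± 42.9 and 10.6 ± 20.6 FPKM (2.09, or 2.85 without NS neuron 13). Napb averaged 40.9 ± 35.1 and 5.46 ± 13.7 FPKM (2.70, or 3.98 without NS neuron 16).

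The complexins, which bind the assembled SNARE complex, did not share a direction. Cplx2 averaged 62.5 ± 57.4 FPKM in LS and 28.7 ± 41.2 in NS neurons, a ratio of 1.10. Cplx1 averaged 51.5 ± 55.5 and 83.9 ± 182 FPKM, a ratio of -0.69, with NS neurons 6 and 13 at 473 and 471 FPKM, and of 0.09 and 0.08 without the one or the other. Cplx3 averaged 8.13 ± 20.9 and 48.4 ± 135 FPKM. Its ratio was -2.44, -0.27 without NS neuron 12, which had 472 FPKM, and 3.22 where the receptor-gene level was under 10%. The ratios of Vamp1, Vamp4 and Stxbp5 lay between -0.76 and -0.08, and moved with single neurons. That of Vamp1 was 0.05 without NS neuron 8 and that of Stxbp5 was 0.77 without NS neuron 12. That of Vamp4 was 1.27 without NS neuron 15 and -1.25 without LS neuron 43.

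**Figure D3:**
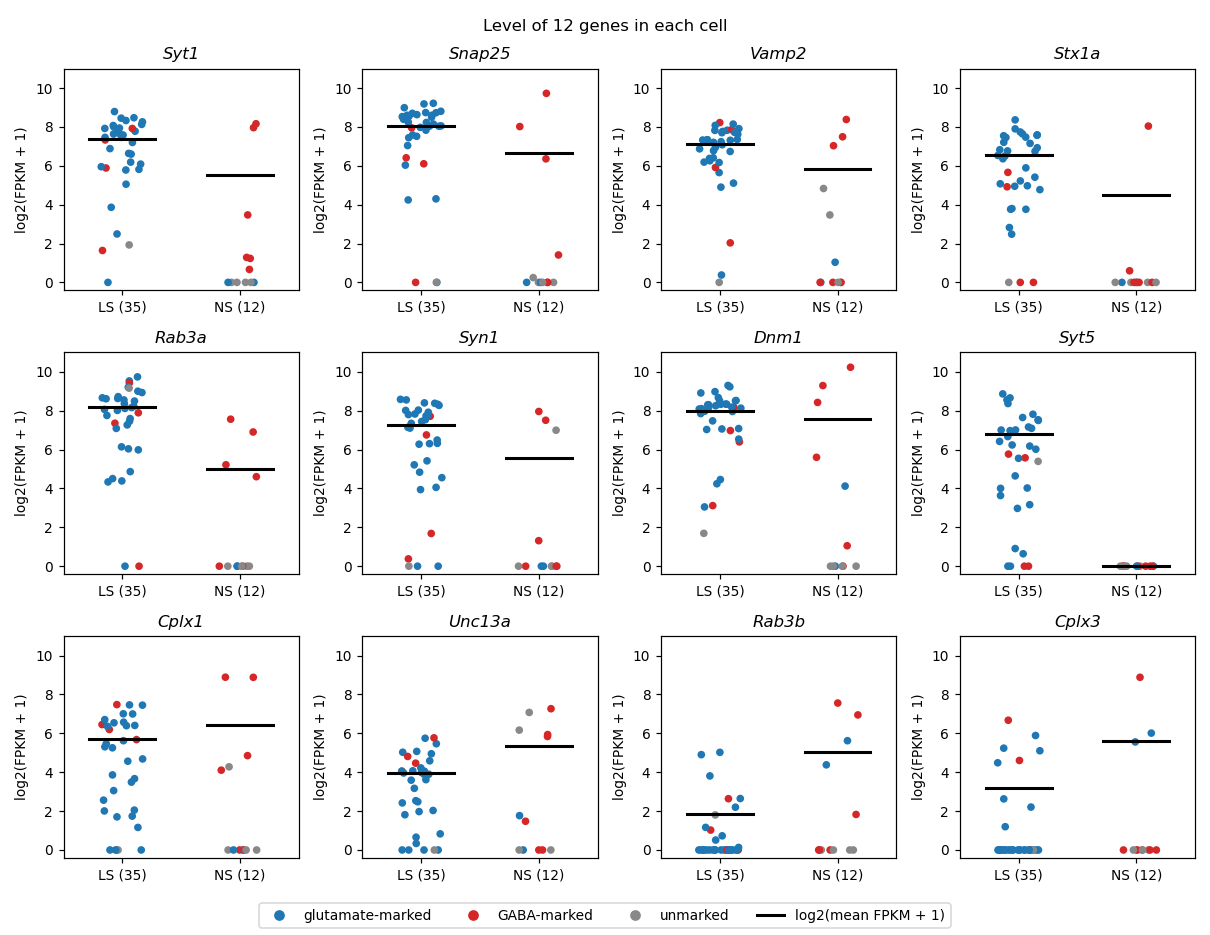
Level of 12 genes in each of 35 LS and 12 NS neurons, as log2(FPKM + 1). Points are neurons coloured by marker class, and the black line is the log2 of the group's mean FPKM plus 1. For Syt1, Snap25 and Syn1, 3 NS neurons lie at or above 10 FPKM and 9 lie below, and for Syt5 all 12 lie at 0.

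By the group means, no active zone gene was 2-fold higher in LS neurons. By the medians Rims1, Unc13a, Rims2, Pclo and Bsn were, at 2.54, 2.26, 1.95, 1.63 and 1.62, against 89.5% of all genes that had a median of 1 FPKM in either group. Bsn averaged 19.4 ± 20.1 FPKM in LS and 23.9 ± 34.99 in NS neurons. Unc13a, the main vesicle-priming factor of excitatory synapses, averaged 14.5 ± 14.7 and 39.9 ± 55.7 FPKM, a ratio of -1.40. Its LS median was the higher one, at 13.8 FPKM against 2.09, and reads lay in 30 of 35 LS and 7 of 12 NS neurons. Among glutamate-marked neurons its ratio was 2.67, with 2 neurons on the NS side. These 2 had receptor-gene levels of 48.6% and 113%, and reads for 2 and 3 of the 8 general neuronal markers. Unc13b averaged 5.73 ± 12.1 and 6.71 ± 21.5 FPKM (-0.19, or 2.17 without NS neuron 11). Rims2 averaged 13.04 ± 20.5 and 7.94 ± 13.3 FPKM, and its ratio among GABA-marked neurons was -3.18. Rims1 averaged 8.15 ± 10.6 and 7.12 ± 20.7 FPKM (0.17, 2.05 without NS neuron 16 and -2.80 among GABA-marked neurons). Rims3 averaged 5.07 ± 9.42 and 14.04 ± 30.7 FPKM (-1.31, or -0.28 without NS neuron 7). Pclo averaged 6.18 ± 6.82 and 16.3 ± 35.8 FPKM (-1.27, or -0.24 without NS neuron 13). Unc13c, better known from the cerebellum, averaged 0.458 ± 1.87 and 14.7 ± 23.9 FPKM, a ratio of -3.43, with reads in 4 of 35 LS and 4 of 12 NS neurons. In the 4 unmarked NS neurons, Unc13a, Bsn and Unc13c averaged 51.2, 44.6 and 25.9 FPKM, each with reads in 2 neurons. Rims1, Rims2, Rims3, Unc13b and Pclo averaged 0 to 1.29 FPKM there. Syt1, Rab3a and Dnm1 had no read in these 4 neurons.

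Rab3a, the GTPase that tethers vesicles to Rims, had the highest LS mean of all 51 genes, at 287 ± 223 FPKM (lowest 0, median 267, highest 854, reads in 33 of 35). In NS neurons it had reads in 4, at 188, 119, 36.2 and 23.3 FPKM in neurons 12, 7, 16 and 13. The ratio was 3.19, or 4.07 without NS neuron 12, and 2.14 among GABA-marked neurons. Its paralog Rab3b went the other way, with 2.67 ± 7.33 FPKM in LS and 31.7 ± 60.9 in NS neurons, a ratio of -3.16 and of -2.34 without NS neuron 16. Rab3c averaged 15.98 ± 35.2 and 16.96 ± 55.2 FPKM, and NS neuron 12 held 94.3% of the NS sum (-0.08, or 3.05 without it).

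Syn1 and Syn2, which tie vesicles to the reserve pool, averaged 151 ± 122 and 92.2 ± 78.9 FPKM in LS neurons and 46.4 ± 87.6 and 28.6 ± 40.4 in NS neurons. Their ratios were 1.68 and 1.65, and that of Syn1 was 2.38 without NS neuron 12. Syn3 averaged 0.967 and 4.91 FPKM (-1.59, -0.10 without NS neuron 11 and 0.83 where the receptor-gene level was under 10%). Syngr3 averaged 77.8 ± 74.9 FPKM in LS neurons and had reads in NS neuron 12 alone, at 35.98 FPKM (4.30, or 6.30 without it). Syngr1 averaged 75.4 ± 67.3 and 92.1 ± 118 FPKM and had reads in 9 of 12 NS neurons, more than any other of the 51 genes. Syp, the synaptophysin gene, averaged 49.4 ± 40.7 and 9.78 ± 26.03 FPKM (2.23, or 3.90 without NS neuron 16).

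The SV2 proteins, glycoproteins of the vesicle membrane, differed from each other. Sv2b averaged 58.8 ± 54.0 FPKM in LS neurons with reads in 32 of 35, and had reads in NS neuron 11 alone, at 281 FPKM. Its ratio was 1.29, 5.90 without that neuron and -2.99 among GABA-marked neurons. Sv2a averaged 34.9 ± 28.7 and 14.2 ± 32.95 FPKM (1.24, or 2.47 without NS neuron 12). Sv2c averaged 3.84 ± 15.2 and 31.5 ± 99.8 FPKM, with 91.9% of the NS sum in neuron 13. Its ratio was -2.75, 0.36 without that neuron and -3.80 without LS neuron 9.

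Dnm1, which pinches off vesicles, had reads in all 35 LS neurons, at 2.23 to 628 FPKM (median 279, mean 256 ± 161). In NS neurons it had reads in 6, of which neurons 12, 13 and 16 lay at 1203, 625 and 343 FPKM. The ratio was 0.45, 1.44 without NS neuron 12 and -1.55 among GABA-marked neurons. Amph averaged 42.5 ± 51.3 and 19.5 ± 67.4 FPKM, with 99.7% of the NS sum in neuron 16. Its ratio was 1.08, 5.36 without that neuron, -1.14 among GABA-marked neurons and -0.70 where the receptor-gene level was under 10%. Sh3gl2 averaged 30.2 ± 34.8 and 8.27 ± 21.3 FPKM (1.75, 3.25 without NS neuron 16 and -0.92 among GABA-marked neurons). Snap91, a clathrin adaptor, averaged 25.4 ± 30.98 and 4.37 ± 8.33 FPKM, a ratio of 2.30 and of 0.22 among GABA-marked neurons. Synj1 averaged 21.8 ± 20.9 and 14.6 ± 22.3, with a ratio of -1.49 among GABA-marked neurons.

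Few NS neurons carried most of a gene, among these genes as among all 16760 genes tested. For 34 of the 51 genes (66.7%), 1 neuron held over 50% of the NS sum, against 76.7% of all genes, and for 13 (25.5%) it held at least 90%, against 35.5%. In LS neurons 1 neuron held over 50% for 3 genes, against 27.7% of all genes. The NS median was 0 for 38 genes (74.5%), against 89.7% of all genes, and the LS median for 12 (23.5%), against 63.5%. The share of cells with a read was higher in LS neurons for 47 of the 51 genes (92.2%), against 71.3% of all genes, and for 45 (88.2%) after thinning, against 70.4%.

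Within LS neurons the marker classes were compared on 4 GABA-marked neurons, numbers 9, 14, 15 and 39, and 30 glutamate-marked neurons. All 4 had Gad1 and lacked Slc17a7 and Neurod2. Vip, 1 of 9 interneuron subtype markers searched, lay at 5266 FPKM in neuron 15 and 211 in neuron 39. It had reads in 3 of all 35 LS and 0 of 12 NS neurons. The highest levels in LS and NS neurons were 6.00 and 9164 FPKM for Sst, 284 and 6336 for Npy, and 243 and 353 for Pvalb. The part of interneuron type in ratios of GABA-marked LS over NS neurons was not tested. LS neuron 39 stood apart, with reads for 14 of the 51 genes against 40, 39 and 32 in neurons 9, 14 and 15. Of 49 genes with a mean of 1 FPKM in either class, 9 were at least 2-fold higher in GABA-marked neurons, against 20.5% of all genes, and 22 were at least 2-fold lower, against 42.5%. The median log2 ratio was -0.67 for these genes and -0.60 for all. Without LS neuron 9 the number higher was 5, and without LS neuron 14 the number lower was 33. The shares over all genes without these neurons are not given here, so these 2 counts describe the listed genes alone.

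**Figure D4:**
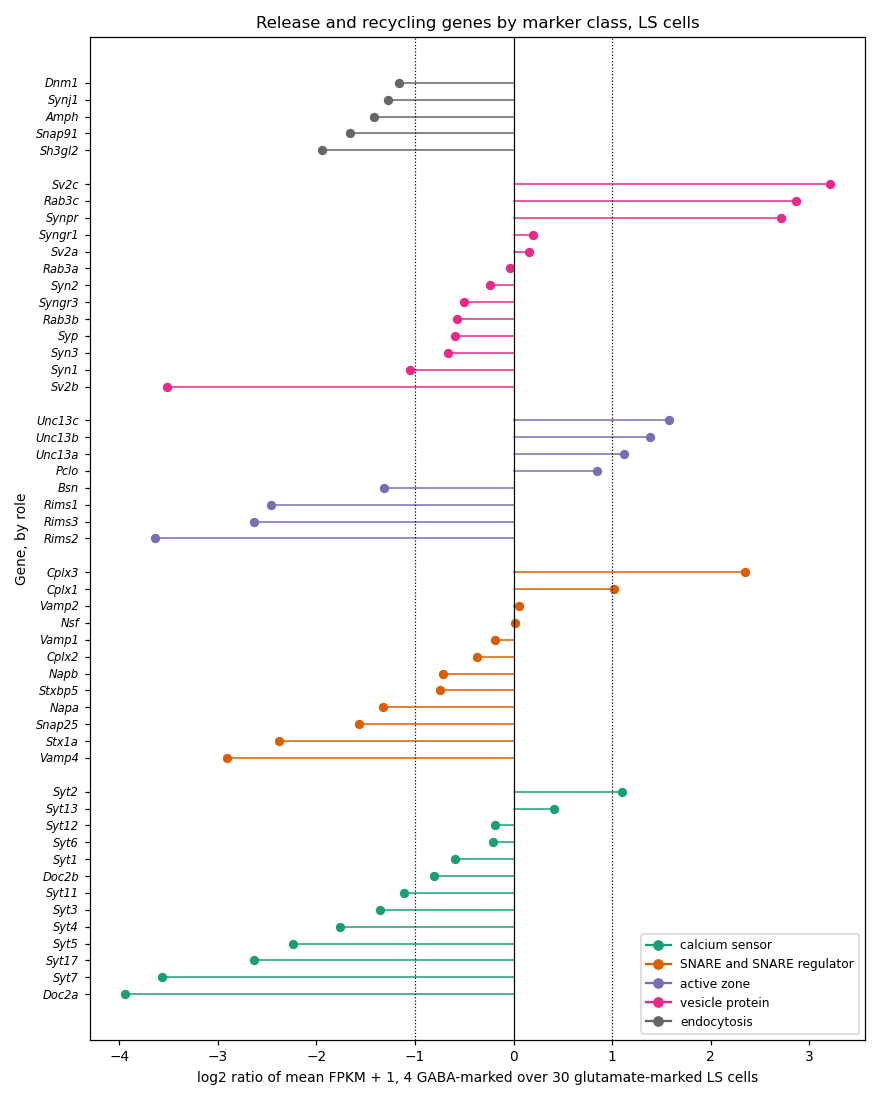
Log2 ratio of the mean FPKM plus 1 in 4 GABA-marked over 30 glutamate-marked LS neurons for each of the 51 genes, by role, with dotted lines at 2-fold. Sv2c, Rab3c and Synpr lie farthest to the right, at 3.21, 2.87 and 2.71, and Doc2a, Rims2, Syt7 and Sv2b farthest to the left, at -3.94 to -3.51.

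Sv2b was the vesicle gene with the lowest ratio in GABA-marked LS neurons. It had reads in all 30 glutamate-marked neurons, at 3.21 to 204 FPKM (median 55.2, mean 68.0 ± 53.0). In GABA-marked neurons 9, 14, 15 and 39 it lay at 18.9, 0, 0 and 1.204 FPKM, so the ranges overlapped in 1 neuron. The ratio was -3.51, or -5.62 without neuron 9. Sv2a averaged 35.5 ± 28.4 FPKM in glutamate-marked and 39.6 ± 33.9 in GABA-marked neurons, a ratio of 0.15. Sv2c was read in GABA-marked neuron 9 alone, at 89.0 FPKM, and its ratio turned from 3.21 to -1.33 without that neuron.

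Rab3c averaged 9.02 ± 13.6 FPKM in glutamate-marked neurons (lowest 0, median 1.31, highest 44.9). In the GABA-marked neurons it lay at 21.3, 194, 73.6 and 0.115 FPKM, of which 2 exceeded every glutamate-marked neuron. The ratio was 2.87, or 1.70 without neuron 14. Synpr, the synaptoporin gene, a relative of synaptophysin, averaged 2.47 ± 5.78 FPKM in glutamate-marked neurons, with reads in 9 of 30. It lay at 19.2, 31.2, 36.1 and 0.234 FPKM in the GABA-marked neurons, a ratio of 2.71. Rab3a averaged 280 ± 216 and 272 ± 295 FPKM (-0.04, or -1.07 without neuron 14).

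Cplx1 averaged 47.2 ± 53.8 FPKM in glutamate-marked neurons and lay at 86.6, 177, 72.5 and 50.2 FPKM in the GABA-marked neurons, a ratio of 1.02. It was among the few genes at a high level in neuron 39. Cplx3 averaged 5.33 ± 13.8 and 31.1 ± 48.0 FPKM (2.34, or 0.47 without neuron 14). Cplx2 averaged 66.2 ± 59.8 and 50.8 ± 33.6 FPKM. Unc13a averaged 12.97 ± 13.6 and 29.3 ± 16.8 FPKM, with 21.1, 15.6, 27.1 and 53.6 FPKM in the GABA-marked neurons, a ratio of 1.12. The ratio of Unc13b was 1.39, that of Unc13c 1.58 and that of Syt2 1.10, and without neuron 9 they turned to -0.23, -0.25 and -0.39.

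Stx1a had reads in all 30 glutamate-marked neurons, at 4.58 to 328 FPKM (median 98.8, mean 106 ± 83.4). It lay at 49.6, 29.2, 0 and 0 FPKM in the GABA-marked neurons, a ratio of -2.38 and of -3.32 without neuron 9. Snap25 averaged 297 ± 155 and 99.5 ± 104 FPKM (-1.57, or -2.53 without neuron 14). Vamp2 averaged 142 ± 73.4 and 148 ± 139 FPKM (0.06, or -0.53 without neuron 9). Vamp4 averaged 18.6 ± 23.4 and 1.61 ± 3.23 FPKM (-2.90, or -4.29 without neuron 14), and Napa averaged 137 ± 83.0 and 54.3 ± 43.9 (-1.32).

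The Rims genes of the active zone were all lower in GABA-marked LS neurons. Rims2 averaged 15.2 ± 21.4 and 0.302 ± 0.456 FPKM, a ratio of -3.64. Rims1 averaged 9.39 ± 11.02 and 0.881 ± 0.649 FPKM, a ratio of -2.47, and the ratio of Rims3 was -2.63. Bsn averaged 21.6 ± 20.7 and 8.05 ± 10.7 FPKM (-1.32, or -2.52 without neuron 9). In LS and NS neurons together, the ratio of Rims3 turned to 1.19, that of Rims1 was -0.23 and that of Rims2 was -1.09.

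Of 11 synaptotagmin and Doc2 genes, 7 were 2-fold lower, beside the 42.5% of all genes, and 1 was higher, beside 20.5%. Doc2a had no read in the 4 GABA-marked neurons and 1564 reads in 12 of the 30 glutamate-marked ones, so 18 of these had none either. Syt7 averaged 13.7 ± 17.8 and 0.237 ± 0.474 FPKM (-3.57), and Syt17 averaged 55.7 ± 103 and 8.12 ± 15.3 (-2.64, or -5.29 without neuron 14). Syt5 averaged 122 ± 128 and 25.01 ± 29.01 FPKM (-2.24, or -2.89 without neuron 14), and Syt4 averaged 38.5 ± 41.3 and 10.7 ± 21.3 (-1.76, or -5.31 without it). Syt1 averaged 175 ± 117 and 115 ± 106 FPKM, a ratio of -0.60 and of -1.24 without neuron 14. All 5 endocytosis genes were 2-fold lower, with ratios of -1.94 to -1.16, beside 42.5% of all genes. Without neuron 39 the ratios of Dnm1 and Synj1 were -0.77 and -0.90, and without neuron 14 those of Amph, Sh3gl2 and Dnm1 were -5.28, -3.08 and -1.96. In LS and NS neurons together the ratio of Dnm1 was 0.041 and that of Synj1 was -0.14, and that of Sh3gl2 stayed past 2-fold, at -1.23.

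Across the 30 glutamate-marked LS neurons, the genes of high level differed in how they varied with Snap25. On the log2(FPKM + 1) scale, Pearson's r with Snap25 was 0.91 for Syt1, 0.88 for Rab3a and 0.88 for Vamp2, and 0.75, 0.74 and 0.58 without the 2 neurons farthest from the median of Snap25. Spearman's rho was lower, at 0.69, 0.66 and 0.45. For Napa r was 0.17, with 0.41 without those neurons and a rho of 0.32. For Syt5 it was 0.51, with 0.30 without those neurons and a rho of 0.23. The neurons share a library each, and r of Snap25 with the log2 of recovered reads was 0.04. For Syt3, Unc13b and Doc2a, r with Snap25 lay between 0.00 and 0.03.

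Of 31 other genes of release and recycling, such as clathrin, adaptor and scaffold genes, 10 were at least 2-fold higher in LS neurons and 4 at least 2-fold lower, beside the 31% and 35.6% of all genes, with a median log2 ratio of 0.41. Scamp5, a vesicle-associated carrier protein, had the highest mean, at 224 FPKM in LS and 4.79 in NS neurons, and the largest ratio, 5.28. Ap2s1 and Snap47 followed in level, at 160 and 142 FPKM in LS neurons. Syt10 was listed at 0 in all 12 NS neurons and averaged 18.8 FPKM in LS neurons, and the ratio of Pacsin1 was 3.15, or 4.27 without NS neuron 16. The lowest ratios were those of Rph3a (-2.82, or -2.22 without NS neuron 13), Ppfia4 (-1.76, or 1.09 without NS neuron 6) and Rab27b (-1.47, or -0.57 without NS neuron 6). Leaving out single neurons for this list was chosen after seeing the data. In GABA-marked LS neurons, 4 of 30 of these genes were at least 2-fold higher, beside 20.5% of all genes, and 5 at least 2-fold lower, beside 42.5%.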

How the data were processed

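Single V1 neurons were profiled by Smart-seq2 in 46 LS and 17 NS cells, all with a column in 1 table (0 columns unused). The deposited values are FPKM, which the authors made by trimming with AfterQC, aligning to GRCm38 with STAR 2.5.3a, counting with featureCounts and scaling with scater, and they kept protein-coding genes. The 51 genes and all lists were chosen with earlier results of these data known. Cells were grouped by the labels. The filters of the study, taken in order, removed 2 cells of low cDNA concentration, 1 with fewer than 1000 genes above 1 FPKM, 0 with a mitochondrial share above 25%, 10 by an astrocyte score, 1 by an oligodendrocyte score and 2 with excitatory and inhibitory markers together, which were also the only treatment of doublets. This left 47 cells, fewer than the study states.

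Ratios used a pseudocount of 1 FPKM and genes with a mean of at least 1 FPKM in either group, 4 rows with repeated names left out. Reads were recovered as whole multiples of the value of 1 read (tolerance 0.001), using GENCODE M21 exon lengths for 35 of the 51 genes and solved lengths for 16. On simulated data of 19964 genes, 99.96% of resolved values equalled the simulated reads, and 195 of 200 planted LS over NS ratios came back within 0.2 on the log2 scale. The ratios were planted in genes with a mean of at least 10 FPKM, with counting error as the only spread between cells. They check the calculation and do not measure the precision of the ratios reported here, which move with single cells. Depth was 153983 to 2549386 reads per kept cell. NS neuron 12 had even read counts for 84.9% of its genes, against 35.8 to 50.3% in other cells, so intervals on reads may be too narrow there. Intervals (95%, exact) cover counting error only. Named in full were the up to 4 highest genes per role, genes past 2-fold with a higher mean of at least 10 FPKM, and paralogs; of the other genes, the 3 highest means and the 3 largest and smallest ratios. Python 3.11.15, numpy 2.4.6, pandas 2.3.3, scipy 1.17.1 and matplotlib 3.10.9 were used. The labels give no mouse, date or batch, so batches could not be examined.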

Additional observations from a re-analysis of the deposited data

How the results depend on the processing

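No paired analysis was possible because the replicate numbers only name cells and no result comes from a test. For light response, a pseudocount of 0.1 FPKM, no filter on low values, all 63 cells, cells with at least 3000 genes, pooled CPM and thinning to 200000 reads left the number of genes at least 2-fold higher (17 to 25, 23 as reported) and lower (10 to 14, 10 as reported) within 1.5 times. Over all genes, these settings gave 25.7 to 37.5% higher and 29.6 to 38.6% lower. With medians over cells, 35 of 36 genes were higher, against 89.5% of all genes, and 0 were lower, against 4.23%. The median log2 ratio was then 4.39, against 2.64 for all genes. With means of log2(FPKM + 1) 2 were lower, against 5.77% of all genes. In glutamate-marked cells, of which 2 were NS, the median ratio was 2.46, against 0.58 for all genes. In GABA-marked cells 11 were higher, against 40.3% of all genes, and 20 lower, against 40.98%. With each cell left out in turn, 21 to 25 were higher, 8 to 11 were lower and the median ratio was 0.33 to 0.97. The shares over all genes with each cell left out are not given here. Leaving out each cell moved the ratio of Syt6 between -2.20 and 0.18 and that of Sv2c between -3.80 and 0.36.

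Among genes past 2-fold as reported, ratios of LS over NS neurons changed sign for Rims3, Unc13a and Pclo with medians (0.55, 2.26 and 1.63) and with means of log2 values (0.0341, 0.11 and 0.34). Where the receptor-gene level was under 10% they did for Syt1 (-0.068), Syt2 (0.90), Syt6 (0.15), Snap25 (-0.15), Cplx3 (3.22), Syn3 (0.83) and Amph (-0.70). They did for Syt6 in cells with at least 3000 genes (0.19), for Syt6 and Unc13a in glutamate-marked cells (0.21 and 2.67), and in GABA-marked cells for Snap25 (-0.98), Stx1a (-1.11), Napa (-0.27), Sv2b (-2.99), Amph (-1.14) and Sh3gl2 (-0.92). Genes between the 2-fold limits also changed sign, up to 9 of the 51 in an alternative. In GABA-marked cells 8 did, of which 7 passed 2-fold, among them Rims2 (-3.18), Rims1 (-2.80), Dnm1 (-1.55) and Synj1 (-1.49). Leaving out each cell moved the ratio of Ppfia4, of the wider list, between -1.97 and 1.09. The cause was not tested.

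For GABA-marked over glutamate-marked LS cells, 5 genes were higher with means of log2 values, against 13.1% of all genes, 5 with wide marker lists, against 23.7%, and 14 in LS and NS cells together, against 25.9%. With each cell left out in turn, 5 to 10 were higher and 16 to 33 lower, 16 without LS neuron 39, again without the shares over all genes. Of genes past 2-fold, Syt3 changed sign with medians (1.56) and wide lists (0.25), and Rims3 and Dnm1 in LS and NS cells together (1.19 and 0.041). Of genes between the limits, 9 changed sign in LS and NS cells together, of which Rab3b, Syt6, Syn3 and Doc2b passed 2-fold. With all 46 LS cells 4 did, of which Vamp1 passed 2-fold (1.31). Leaving out each cell moved Syt2 between -0.39 and 1.496, Unc13b between -0.23 and 1.89, Unc13c between -0.25 and 1.89, and Sv2c between -1.33 and 3.61. With 12 NS and 4 GABA-marked LS cells, shares of cells are known only roughly.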
